A study of Homo sapiens with 3 samples.

Results

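Broad stretches of vitamin D receptor (VDR) binding were examined in THP-1, a cell line from a human monocytic leukaemia. A broad site is a string of at least 2 deposited peaks in which each peak starts exactly 10 bp after the end of the one before it. Such strings were chosen from the peak positions of 2 lists, and overlapping strings of the 2 lists were merged. This gave 221 sites out of 1984 bound regions in all (11.1%, exact 95% interval 9.79 to 12.6%). The unstimulated list contributed 127 strings and the calcitriol list 157.

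VDR, a nuclear receptor, usually pairs with a retinoid X receptor and binds direct repeats of a hexamer spaced by 3 bases (DR3). Its ligand calcitriol, 1α,25(OH)2D3, turns bound receptor toward coactivators, and in monocytes it is known for inducing antimicrobial and differentiation genes. A nuclear receptor usually gives a narrow ChIP-seq peak over its motif. The lists used here hold positions alone, so the shape of the signal under a stretch was not seen.

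Both VDR libraries came from THP-1 cells kept overnight in phenol red-free medium with charcoal-stripped serum. One was left untreated (unstimulated) and the other received 10 nM calcitriol for 40 min. Each is 1 library per condition and combines 5 immunoprecipitations, so no variation between cultures can be estimated and no test between the conditions was possible. The third sample of the series, an IgG control from pooled material, was not analysed here. The lists carry positions on hg19 and no height, score or read number, so the depth behind them is unknown and a string shows extent, not strength. Intervals below cover counting error only.

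In the unstimulated list 170 of 1169 rows follow the first break in position order within their chromosome. They are called out-of-order rows, even where they ascend among themselves, and they bear on the strings. Of the 170, 65 were pieces of strings (38.2%, exact 95% interval 30.9 to 46.0%), against 256 of the 999 rows in order (25.6%, 22.9 to 28.5%). They occurred in 55 of the 127 unstimulated strings, and 4 strings consisted of them alone. Of these 65 pieces, 50 overlapped a calcitriol peak by 1 bp or more (76.9%, exact 95% interval 64.8 to 86.5%). Of the 105 out-of-order peaks outside strings, 0 did, and the exact 95% interval reaches 3.45%. The calcitriol list had no out-of-order row. The sources used here do not say how these rows arose. Values without them are given where they matter.

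The 10 bp spacing stood apart from wider gaps. Peak edges mostly fell on a 10 bp grid, so 10 bp was the smallest gap that most pairs could have. The absence of closer pairs was therefore largely set by this grid. In the unstimulated list 194 neighbouring pairs were exactly 10 bp apart and 0 were closer. The next smallest gaps there were 31, 50, 50 and 90 bp. In the calcitriol list 220 pairs were exactly 10 bp apart, 0 were closer, and the next gaps were 20, 30, 50 and 151 bp. Only 4 unstimulated and 3 calcitriol pairs lay between 10 and 100 bp, so few pairs stood just outside the rule. The rule used these same gaps, so this is a description. Over 10 and up to 1000 bp there were 44 unstimulated and 37 calcitriol pairs.

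No genome or annotation of hg19 was used here, so the sites are given by position, without gene names or sequences. Those described one by one come from 36 sites taken by rule. It took sites with at least 4 peaks in either list and the widest sites in both lists and in each list alone. Sites with the largest differences in covered length were added. Not described further are sites on chromosomes 1 (92945321 to 92951231), 9 (139922721 to 139926621) and 16 (85935001 to 85941341). The same holds for sites on chromosomes 17 (80193221 to 80198151), 19 (1270751 to 1276011) and 22 (46491491 to 46495311).

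The strings were mostly short. Of the 127 unstimulated strings, 86 had 2 peaks, 28 had 3 and 13 had more, with a maximum of 8. Of the 157 calcitriol strings, 125 had 2 peaks, 21 had 3 and 11 had more, with a maximum of 11. Thus 41 of 127 unstimulated and 32 of 157 calcitriol strings had at least 3 pieces. Pieces made up 27.5% of the unstimulated peaks (321 of 1169, exact 95% interval 24.9 to 30.1%) and 20.7% of the calcitriol peaks (377 of 1820, 18.9 to 22.7%).

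**Figure D1:**
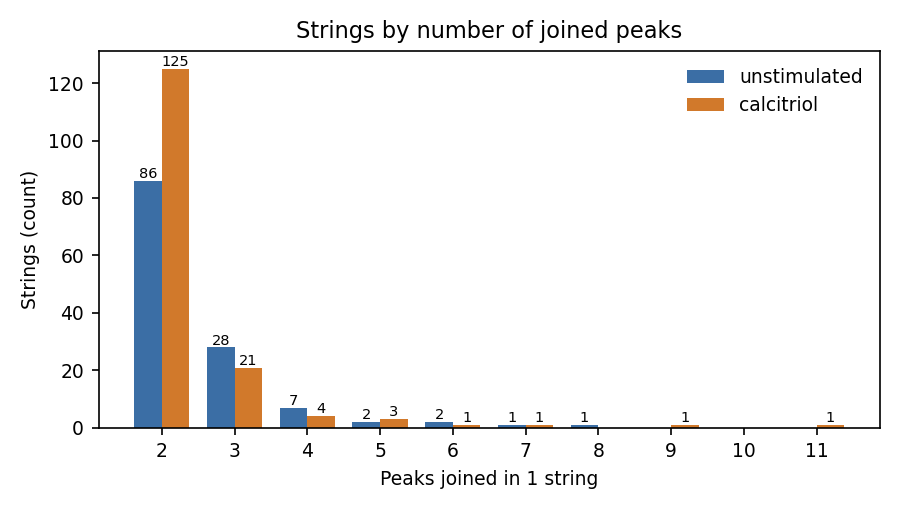
Number of strings (y axis, count) by the number of peaks joined in a string (x axis), for the unstimulated list (blue) and the calcitriol list (orange). Strings of 2 peaks dominate both lists, 86 and 125, and strings of 3 peaks number 28 and 21.

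The median string spanned 2640 bp in the unstimulated list (quartiles 2075 and 3734.5 bp, range 960 to 12630 bp) and 2850 bp in the calcitriol list (quartiles 2150 and 3910 bp, range 1060 to 16100 bp). The joining rule sets these spans in part. In the unstimulated list 29 strings were wider than its widest single peak, which spanned 3820 bp. In the calcitriol list 52 strings were wider than the widest single peak of 3430 bp.

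Individual pieces were narrower than single peaks in both lists. The median piece was 1120 bp against 1414.5 bp for 848 single peaks in the unstimulated list, and 1250 bp against 1460 bp for 1443 single peaks in the calcitriol list. Position within the string made little difference. First, inner and last pieces had medians of 1140, 1080 and 1140 bp in the unstimulated list and 1190, 1210 and 1349 bp in the calcitriol list. The narrowest pieces were 40 and 100 bp wide, and the widest calcitriol piece, 8600 bp, lay in a chromosome 17 string described below.

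The 221 merged sites fell into 5 classes. A string was present in both lists at 59 sites (26.7%, exact 95% interval 21.0 to 33.0%). At 44 sites an unstimulated string met calcitriol peaks that were not joined (19.9%, 14.9 to 25.8%), and at 51 sites a calcitriol string met unstimulated peaks that were not joined (23.1%, 17.7 to 29.2%). The calcitriol list alone held 46 sites (20.8%, 15.7 to 26.8%) and the unstimulated list alone 21 (9.50%, 5.98 to 14.2%). Among the 1763 regions without a string, 984 were in the calcitriol list alone (55.8%) and 368 in the unstimulated list alone (20.9%). Peaks of both lists were thus present at 154 of 221 broad sites (69.7%, 63.2 to 75.7%) and at 411 of 1763 other regions (23.3%, 21.4 to 25.4%). Broad sites are wider and were merged from either list, so these shares are descriptions. Sites with a string in both lists were the widest class, with a median merged width of 4520 bp. The classes found in 1 list alone had medians of 2265 bp (calcitriol) and 2050 bp (unstimulated). Merging 2 strings can only widen a site, so the order of these medians is partly set by the rule. Without the out-of-order rows 196 merged sites were left. Of these, 52 had a string in both lists, 26 an unstimulated string with unjoined calcitriol peaks and 58 the converse. The lists alone then held 14 unstimulated and 46 calcitriol sites.

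Strings of one list were compared with the other list, which the joining rule did not use for them. The origin of the out-of-order rows is unknown, so it is not established that the unstimulated list was made independently of the calcitriol list. Of the 127 unstimulated strings, 106 overlapped a calcitriol peak by 1 bp or more (83.5%, exact 95% interval 75.8 to 89.5%), and of the 848 single unstimulated peaks 480 did (56.6%, 53.2 to 60.0%). The 848 include the 105 out-of-order single peaks, of which 0 did. With out-of-order rows left out before joining, the shares were 85.1% of 94 strings and 65.9% of 786 single peaks. Of the 157 calcitriol strings, 111 met an unstimulated peak (70.7%, 62.9 to 77.7%), and of the 1443 single calcitriol peaks 459 did (31.8%, 29.4 to 34.3%). A string is longer and can meet a peak more easily, so the pieces were also counted one by one. Of 321 unstimulated pieces 252 met a calcitriol peak (78.5%, 73.6 to 82.9%), and of 377 calcitriol pieces 258 met an unstimulated peak (68.4%, 63.5 to 73.1%). Pieces are narrower than single peaks, but pieces of 1 string share their neighbourhood. With the out-of-order rows set aside, the share was 78.9% for 256 unstimulated pieces (73.4 to 83.7%) and 64.6% for 743 single peaks (61.0 to 68.0%).

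At matched width the contrast differed between bins. Among unstimulated sites of 1500 to under 2500 bp, 37 of 51 strings (72.5%, exact 95% interval 58.3 to 84.1%) and 223 of 338 single peaks (66.0%, 60.7 to 71.0%) met a calcitriol peak. From 2500 to under 3500 bp the counts were 29 of 33 strings (87.9%, 71.8 to 96.6%) and 11 of 23 single peaks (47.8%, 26.8 to 69.4%). Without sites that hold out-of-order rows these became 19 of 29 strings (65.5%) against 223 of 319 single peaks (69.9%) in the narrower bin and 21 of 22 (95.5%) against 11 of 16 (68.8%) in the wider bin. In the calcitriol list the narrower bin had 29 of 50 strings (58.0%, 43.2 to 71.8%) and 250 of 619 single peaks (40.4%, 36.5 to 44.4%). The wider bin had 32 of 46 strings (69.6%, 54.2 to 82.3%) and 45 of 66 single peaks (68.2%, 55.6 to 79.1%). The intervals of strings and single peaks overlapped in these bins, except in the wider unstimulated bin with all rows. In that bin the contrast was larger than over all widths, and in the narrower unstimulated bin and the wider calcitriol bin it was small.

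Over all widths, sites split in one list were more often split in the other, and in 1 of 4 comparisons at matched width the shares were close. Of the 106 overlapped unstimulated strings, 62 met a calcitriol string (58.5%, exact 95% interval 48.5 to 68.0%), while 66 of 480 overlapped single unstimulated peaks did (13.8%, 10.8 to 17.2%). In the other direction 60 of 111 overlapped calcitriol strings met an unstimulated string (54.1%, 44.3 to 63.6%), against 47 of 459 overlapped single peaks (10.2%, 7.62 to 13.4%). Within the bin of 1500 to under 2500 bp the shares were 17 of 37 (45.9%, 29.5 to 63.1%) against 31 of 223 (13.9%, 9.64 to 19.1%) from the unstimulated side. From the calcitriol side they were 8 of 29 (27.6%, 12.7 to 47.2%) against 22 of 250 (8.80%, 5.60 to 13.0%). From 2500 to under 3500 bp the shares from the unstimulated side were close, 13 of 29 (44.8%, 26.4 to 64.3%) against 4 of 11 (36.4%, 10.9 to 69.2%). From the calcitriol side they were 17 of 32 (53.1%, 34.7 to 70.9%) against 9 of 45 (exact 95% interval 9.58 to 34.6%). With out-of-order rows left out, the shares over all widths were 67.5% against 16.4% and 47.7% against 6.32%.

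The places of the splits were compared over all gaps, including gaps at sites where the other list had none to match. These shares are therefore not comparable with those of strings above. No share was computed for sites split in both lists alone, nor the share that a 100 bp window would match without any relation. None of the 194 unstimulated gaps had the position of a calcitriol gap. A calcitriol gap lay within 100 bp of 37 unstimulated gaps (19.1%, exact 95% interval 13.8 to 25.3%), at a median distance of 50 bp. The groups exclude each other, so these 37 gaps were not checked for lying inside a calcitriol peak. Among the rest, a single calcitriol peak ran across 110 unstimulated gaps, 56.7% of all 194 (49.4 to 63.8%). This was the largest group, and the full number of gaps crossed by a calcitriol peak can be higher. Of the 220 calcitriol gaps, 37 had an unstimulated gap within 100 bp (16.8%, 12.1 to 22.4%). Of the others, 102 lay inside a single unstimulated peak (46.4% of all 220, 39.6 to 53.2%), again a count that leaves out the 37. A further 48 calcitriol gaps (21.8%) and 23 unstimulated gaps (11.9%) were in strings where the other list had no peak.

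**Figure D2:**
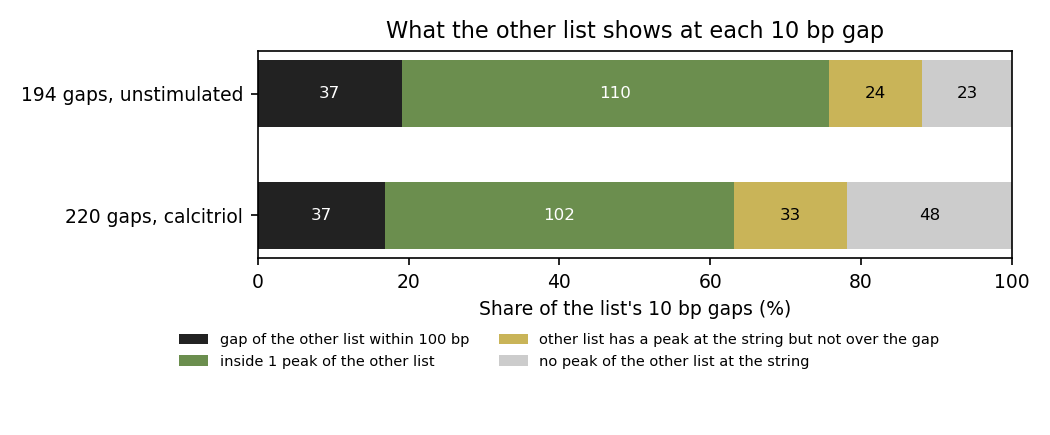
Share of the 10 bp gaps of each list (x axis, percent; gap counts inside the bars) by what the other list holds there. In both rows the green part is the longest, with 110 of 194 and 102 of 220. It holds gaps crossed by 1 peak of the other list, without those that have a gap of that list within 100 bp.

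Outer edges were compared between the lists at the 59 sites split in both. An edge here is the first start or last end of all peaks of a list that overlap the site. It includes unjoined peaks, also where they run outside the site. The left edges differed by a median of 470 bp (quartiles 225 and 1160 bp) and the right edges by a median of 340 bp (quartiles 145 and 614.5 bp). The covered length at these sites had a median of 3620 bp in the unstimulated and 3730 bp in the calcitriol list. It was longer in the calcitriol list at 39 sites and shorter at 20, with a median difference, calcitriol minus unstimulated, of 350 bp (quartiles -310 and 949.5 bp). At the 36 of these sites free of out-of-order rows it was longer at 25 and shorter at 11, with a median difference of 385 bp. The number of peaks did not follow the covered length. The calcitriol list had more peaks at 10 of the 59 sites, fewer at 19 and the same number at 30. At the 36 sites free of out-of-order rows, however, it had more peaks at 9, fewer at 3 and the same number at 24. Each out-of-order row is itself an unstimulated peak, so leaving out these sites favours sites with fewer unstimulated peaks by construction.

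**Figure D3:**
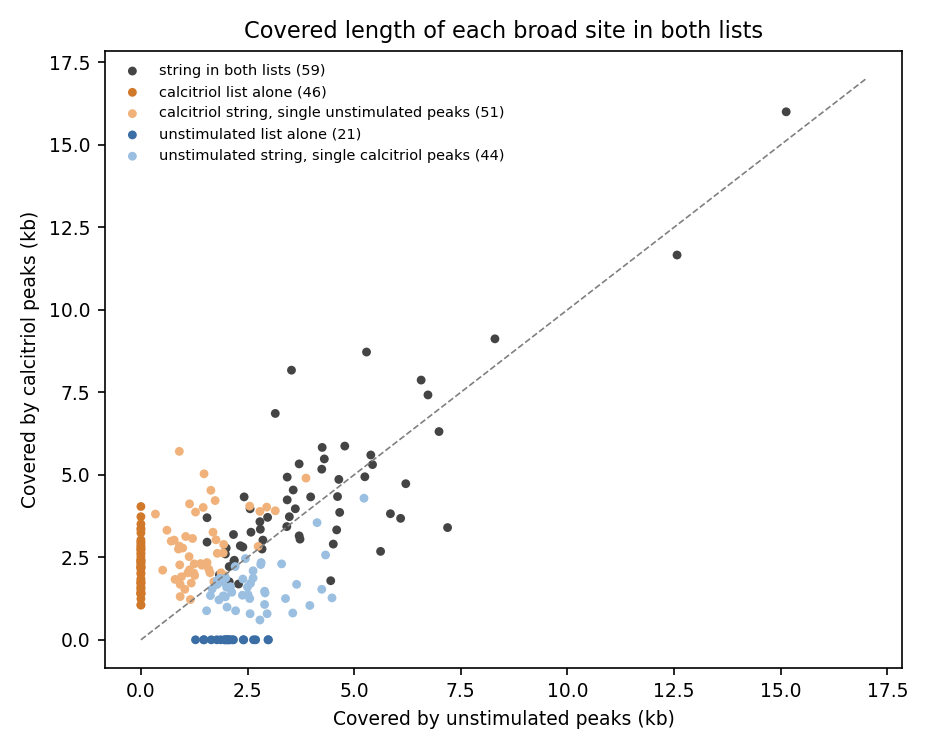
Length covered by peaks at each of the 221 broad sites, in kb, in the unstimulated list (x axis) and in the calcitriol list (y axis), with points coloured by class (site counts in the key) and a dashed line of equality. Of the 59 dark points, strings in both lists, 39 lie above the line and 20 below it.

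Covered lengths count bases within the merged site, while peak widths are whole. A merged site is bounded by strings alone, so a string in only 1 list nearly fixes the sign of the difference. Calcitriol minus unstimulated was at most 10 bp where an unstimulated string met unjoined calcitriol peaks. In the converse class it was at least -10 bp. The widest site lay on chromosome 22 (46465461 to 46481791) and spanned 16330 bp. It held 11 unstimulated peaks of 580 to 2260 bp and 11 calcitriol peaks of 890 to 1950 bp, and 2 of the former come from out-of-order rows. The covered lengths were 15129 and 16000 bp. In the calcitriol list the 11 peaks formed 1 unbroken string, whereas the unstimulated peaks fell into 3 strings and single peaks between them.

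The next site, on chromosome 17 (56381801 to 56394431), spanned 12630 bp. The unstimulated list cut it into 7 peaks of 1110 to 2830 bp, 4 of them out-of-order rows. The calcitriol list cut it into 4 peaks of 8600, 1670, 660 and 730 bp. The covered lengths were 12570 and 11660 bp, so a similar stretch was covered and differently divided.

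A site on chromosome 6 (68590591 to 68599791) spanned 9200 bp and held 8 unstimulated peaks of 690 to 1720 bp and 9 calcitriol peaks of 650 to 1550 bp, none from an out-of-order row. The covered lengths were 8300 and 9120 bp. A site on chromosome 2 (63278651 to 63286131) also held 7 peaks in each list, covering 6730 and 7420 bp. Of its unstimulated peaks, 1 is an out-of-order row and the last was not joined to the string.

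**Figure D4:**
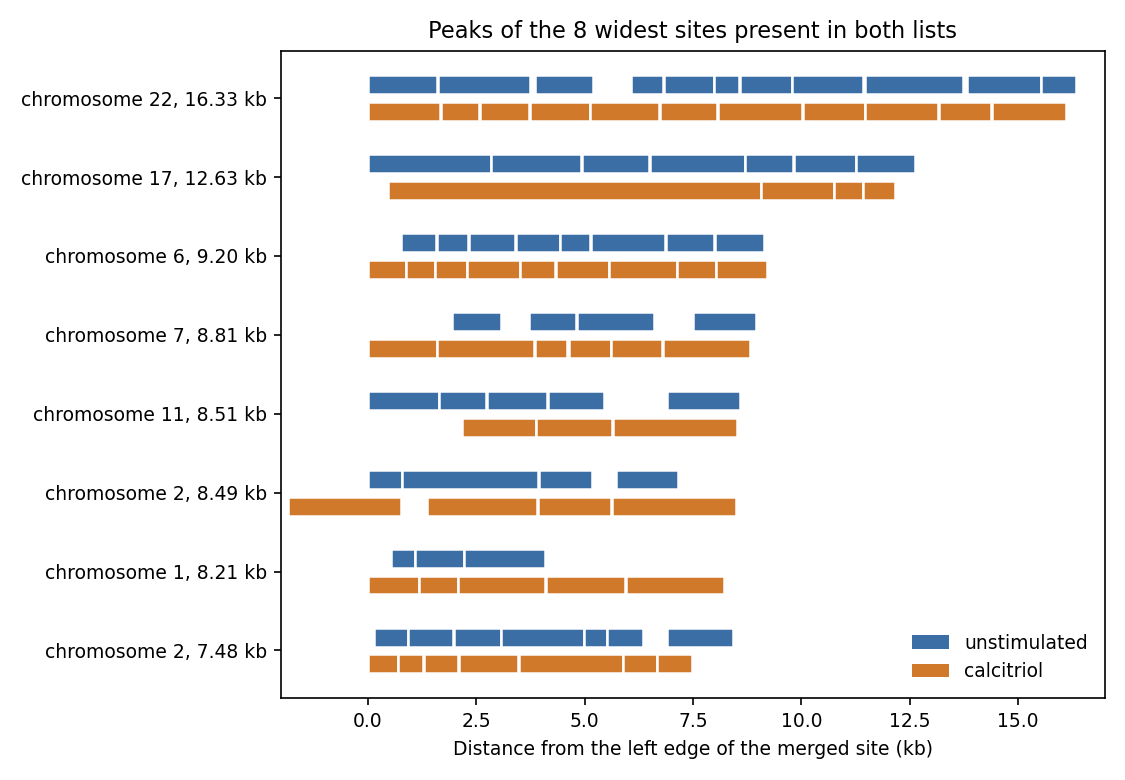
Peaks of the 8 widest sites present in both lists, drawn to scale from the left edge of each merged site (x axis, kb), with unstimulated peaks in blue above calcitriol peaks in orange. White lines mark peak edges and are wider than the 10 bp gaps; the chromosome 17 site of 12630 bp shows the calcitriol peak of 8600 bp below all or part of the first 5 unstimulated peaks.

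Several long sites were covered further in the calcitriol list. The largest difference among strings of both lists was on chromosome 1 (234741451 to 234749661). Unstimulated peaks of 550, 1120 and 1860 bp covered 3530 bp there, and calcitriol peaks of 1170, 890, 2010, 1840 and 2260 bp covered 8170 bp. The calcitriol string reached beyond the unstimulated one at both ends. A second site on chromosome 1 (155944861 to 155951770) had unstimulated peaks of 1950 and 1200 bp and 6 calcitriol peaks of 680 to 1819 bp, covering 3150 and 6859 bp. On chromosome 7 (27200871 to 27209681) 4 unstimulated and 6 calcitriol peaks covered 5290 and 8720 bp. None of these 3 sites held an out-of-order row.

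The largest gain of all 221 sites was also on chromosome 1 (244996321 to 245002041). A single unstimulated peak of 900 bp lay inside the first of 2 calcitriol peaks of 3820 and 1890 bp. Smaller gains with peaks in both lists included a chromosome 2 site (232572241 to 232580731), where 4 peaks in each list covered 6570 and 7870 bp. On chromosome 19 (827271 to 833140) unstimulated peaks of 930, 1110, 1000 and 1210 bp covered 4250 bp, and 5 calcitriol peaks of 640 to 1999 bp covered 5829 bp. A gain in covered length did not need more peaks. At a second chromosome 19 site (2269571 to 2274921) 4 unstimulated peaks covered 3710 bp and 3 calcitriol peaks covered 5330 bp. The last of these unstimulated peaks is an out-of-order row.

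Other sites were covered further in the unstimulated list. The largest loss of all 221 sites was on chromosome 22 (50964451 to 50971661). Unstimulated peaks of 2060, 2230 and 2900 bp covered 7190 bp, and calcitriol peaks of 1300, 710 and 1390 bp covered 3400 bp in its middle, with no out-of-order row. On chromosome 8 (145732501 to 145737001) 3 unstimulated peaks covered 4480 bp and 1 calcitriol peak covered 1270 bp. On chromosome 19 (797691 to 802171) unstimulated peaks of 1320, 990, 850 and 1290 bp covered 4450 bp, and calcitriol peaks of 770 and 1020 bp covered 1790 bp. The chromosome 8 and chromosome 19 sites each held 1 out-of-order row.

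On chromosome 1 (2159961 to 2166220) unstimulated peaks of 1320, 850, 1650, 1490 and 779 bp covered 6089 bp, and calcitriol peaks of 1940 and 1740 bp covered 3680 bp. The second unstimulated peak is an out-of-order row. Both lists began near the left end, and the calcitriol string stopped short of the right end. On chromosome 11, 6 unstimulated and 3 calcitriol peaks covered 6210 and 4730 bp (67033931 to 67040191). A neighbouring site (67048341 to 67056851) held 5 and 3 peaks covering 6989 and 6310 bp. Of these 11 unstimulated peaks, 3 are out-of-order rows.

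A further group differed by less than 1 kb in covered length while the number of peaks differed. On chromosome 19 (33788471 to 33794030) unstimulated peaks of 2230, 2160 and 1040 bp covered 5430 bp, and calcitriol peaks of 1160, 680, 2440 and 1029 bp covered 5309 bp. On chromosome 13 (110432831 to 110438451) 4 unstimulated and 3 calcitriol peaks covered 5390 and 5600 bp. On chromosome 16 (54315191 to 54320131) 4 and 2 peaks covered 4610 and 4340 bp. The last 2 sites held 1 and 2 out-of-order rows, and the chromosome 19 site held 0.

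At 5 sites the widest strings of the calcitriol list alone spanned 3350 to 4059 bp. The widest, on chromosome 1 (31917051 to 31921110), had peaks of 1290, 970 and 1779 bp. On chromosome 22 (17585381 to 17588911) there were 3 peaks of 780, 710 and 2020 bp. The others had 2 peaks each, of 1610 and 2120 bp on chromosome 1 (44246581 to 44250321), 1780 and 1599 bp on chromosome 17 (27465611 to 27469000) and 1930 and 1410 bp on chromosome 15 (91433011 to 91436361).

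The widest strings of the unstimulated list alone spanned 2420 to 3000 bp and in part rested on the out-of-order rows. The string on chromosome 1 (43406191 to 43409191; 1270 and 1720 bp) and the one on chromosome 6 (35436621 to 35439331; 740, 830 and 1120 bp) consisted of such rows alone. On chromosome 5 (138859471 to 138862470) the second of 3 peaks, of 1480, 480 and 1019 bp, is such a row. The strings on chromosome 16 (1819961 to 1822611; 1500 and 1140 bp) and chromosome 1 (247597091 to 247599511; 850 and 1560 bp) held none.

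The distances from broad sites to other bound regions are a description, since the spacing of the same peaks chose the sites and a stretch broken by a gap above 10 bp leaves its remainder as another region. Of the 221 sites, 104 had another bound region within 10 kb (47.1%, exact 95% interval 40.3 to 53.9%), against 351 of the 1763 regions without a string (19.9%, 18.1 to 21.9%). The median distance to the nearest other region was 12.7 kb for broad sites and 117.8 kb for the other regions.

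For the same reason neighbouring broad sites can be fragments of 1 stretch, and at the closest pair no base lay between them. In all, 71 of 221 had another broad site within 50 kb (32.1%, exact 95% interval 26.0 to 38.7%). Joining sites up to 50 kb apart gave 177 loci, of which 27 held at least 2 sites and 8 held at least 3, with 33 sites in those 8. Peak numbers and covered lengths of a locus are summed over its sites, without the stretches between them. The most crowded locus, on chromosome 22 (46465461 to 46511911), held 7 sites in 46.5 kb, with 25 unstimulated and 21 calcitriol peaks. Within the sites these covered 62.2% and 59.5% of the locus length, so all peaks together can cover more. A locus on chromosome 19 (797691 to 845351) held 5 sites, with 12 peaks in each list covering 12710 and 14448 bp. A locus on chromosome 11 (67033931 to 67071730) held 4 sites, with 16 unstimulated and 10 calcitriol peaks covering 18209 and 15499 bp.

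Other loci differed more between the lists. One on chromosome 17 (80185371 to 80205671) held 4 sites over 20.3 kb, covering 14340 bp in the unstimulated and 10840 bp in the calcitriol list. One on chromosome 1 (155910961 to 155951770) held 3 sites covering 5110 and 11779 bp, with 3 and 10 peaks. On chromosome 5 (138853301 to 138862470) 2 sites covered 5559 and 3260 bp, with 6 and 2 peaks. On chromosome 10, at a locus picked after its values were seen (70859791 to 70868400), 2 sites covered 1740 and 6359 bp, with 1 and 5 peaks. The sign of the difference went both ways between loci, but at sites with a string in only 1 list the choice of sites nearly fixed it. The chromosome 10 locus was made of such sites, with strings in the calcitriol list alone. The chromosome 17 locus was also made of such sites, some with a string in the unstimulated list and some in the calcitriol list. The chromosome 1 and chromosome 5 loci each included such sites beside a site with a string in both lists. The chromosome 17 and chromosome 5 loci also held out-of-order rows.

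Broad sites were unevenly spread over the chromosomes. Of the regions on chromosome 17, 21 of 88 were broad sites (23.9%, exact 95% interval 15.4 to 34.1%), and on chromosome 22, 13 of 66 (19.7%, 10.9 to 31.3%). On chromosome 19 the share was 15.8% (30 of 190) and on chromosome 1 it was 14.7% (35 of 238). On chromosome 6 it was 6.14% (7 of 114) and on chromosome 2 it was 6.84% (8 of 117). No broad site was found among 32 regions of chromosome 21 or 27 of chromosome X, where exact 95% intervals reach 10.9% and 12.8%. Only the interval of chromosome 17 lies wholly above the share over all regions, 11.1%. These intervals treat sites as independent, although neighbouring sites can be fragments of 1 stretch. On chromosome 17 the loci starting at 79790541 and 80185371 held 4 sites each. No allowance was made for the number of chromosomes. Chromosomes 1, 16, 17 and 19 together held 101 of 221 broad sites (45.7%, 39.0 to 52.5%) and 521 of 1763 other regions (29.6%, 27.4 to 31.7%). These 4 chromosomes were picked as those with the most broad sites.

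**Figure D5:**
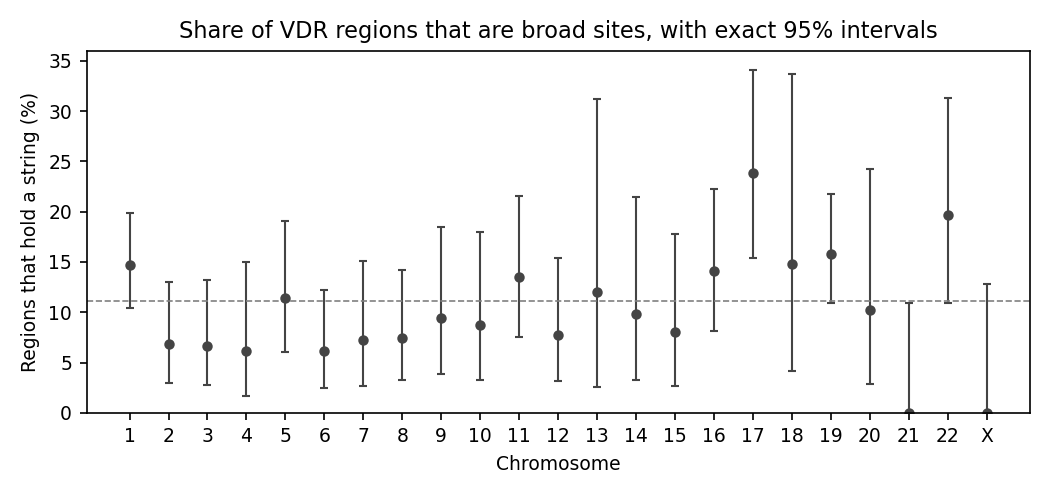
Share of the bound regions of each chromosome (x axis) that are broad sites (y axis, percent; points), with exact 95% intervals as bars and the share over all regions, 11.1%, as a dashed line. Chromosomes 17 (23.9%) and 22 (19.7%) have the highest shares, and chromosomes 21 and X have none.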

How the data were processed

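VDR ChIP-seq peak lists of THP-1 cells were analysed, 1 library per condition, each pooled from 5 immunoprecipitations per the deposited protocol. The submitters' processing notes name Bowtie and hg19. Neither the peak caller nor its threshold is given in the sources used here, and a caller that cuts long signal into pieces would set the strings. The authors deposited 1 list per library of chromosome, start and end. Coordinates are printed as deposited, and width is end minus start.

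Peaks exactly 10 bp apart were joined, and strings sharing at least 1 bp between the lists were merged. Covered length is the length of a merged site under peaks of a list. Shares have exact Clopper-Pearson 95% intervals. No test was made. The members and lists were chosen with earlier results of these data known. The naming rule took every site with at least 4 peaks in either list, the 8 widest in both lists, the 5 widest in each list alone, and the 4 largest gains and losses of covered length. It asked for an annotation of the build before naming genes. None was given, so no genes are named, and the planned vitamin D gene list and site sequences were not run. Joining was tested on simulated lists. Python 3.11.15, numpy 2.4.6, pandas 2.3.3, scipy 1.17.1 and matplotlib 3.10.9 were used.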

Additional observations from a re-analysis of the deposited data

How the results depend on the processing

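No paired analysis was possible because both conditions consist of a single library, and for the same reason no replicate could be left out. Of 34 alternative values, 33 stayed within 1.5 times of the count or inside the exact 95% interval of the reported share or median. These covered joining gaps of at most 10, 100 and 1000 bp and leaving out the out-of-order rows. Some of these alternatives could not move. No pair was closer than 10 bp, so a gap of at most 10 bp repeated the main setting. The calcitriol list had no out-of-order row, so its string count and median width could not change without such rows. With 1000 bp the lists held 137 and 181 strings and 246 merged sites, and without out-of-order rows 94 and 157 strings and 196 sites. The share of sites with peaks in both lists, 69.7%, was 51.1% when each list had to cover at least 50% of the site, and the value for other regions, 23.3%, was computed with a 1 bp overlap alone. Leaving out the out-of-order rows for the comparisons between strings and single peaks, and the width bins, were chosen after seeing the data. The alternative for motifs was not run.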
